A study of Sus scrofa with 12 samples.

Results

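The genes described here code for the structural matrix of the liver, namely the collagen chains, the laminin chains and 19 named matrix glycoproteins and proteoglycans. They were chosen by symbol, as every collagen gene and laminin chain gene by its name pattern together with FN1, SPARC, SPARCL1, FBN1, FBLN1, FBLN5, LUM, DCN, BGN, OGN, POSTN, THBS1, THBS2, NID1, NID2, HSPG2, ELN, MGP and VCAN. COL4A3BP, whose product is a ceramide carrier and no collagen, was not counted. Of 31694 genes listed in the files, 65 met this rule, 38 of them collagen chains, 10 laminin chains and 17 of the named proteins. No gene was listed under the symbols OGN, THBS2, LAMA5, LAMC1, COL6A1, COL11A1 or COL12A1.

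Liver was taken from Jinhua (JH) pigs, a slow-growing Chinese breed that deposits much fat, and from Landrace (LD) pigs, a fast-growing lean breed. All were uncastrated males of 70 days that received no treatment named in the labels, with 3 pigs per breed. One mRNA library and one small RNA library were made per pig, and the authors deposited RPKM per gene, which are reads scaled to the length of the gene and the reads of the library, and RPM per miRNA, which are reads scaled to the clean reads of the library. The effect of breed cannot be told apart from anything else that differed between these groups of 3 pigs.

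In the extracellular matrix of the liver, fibrillar collagens lie, among other places, around the portal tracts and in the capsule. They also form thin strands in the space between hepatocytes and the sinusoidal endothelium, where hepatic stellate cells are their main source. Type IV collagen, laminins, nidogens and perlecan form the sheets called basement membranes under bile ducts and vessels, and fibronectin, which hepatocytes also secrete into plasma, is abundant in the sinusoidal space.

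The RPKM stood for 5744908 to 7914515 reads per mRNA library, with JH1 the shallowest, and 16080 to 17078 genes were above 0 in a library. The tissue label was met by the hepatocyte markers, among which ALB, the serum albumin gene, was at a mean of 29866 ± 3267 in JH and 47923 ± 8861 in LD (RPKM, SD, n = 3 each). A listed 0 may be a failed estimate, since APOB, MYH11 and CD163 were also at 0 in every library, so such a value is given only as listed at 0. The breeds were compared with limma on log2(RPKM + 0.1) over the 12993 genes that reached an RPKM of 0.5 in 3 or more libraries. Calling a gene took a p below 0.05 after Benjamini-Hochberg adjustment and a log2 fold change beyond 1 in size, which 2.39% of the tested genes met. Fold changes are JH over LD on this scale with their SE, which understates the change of low genes, and a difference in the mRNA of a whole liver sample cannot tell apart fewer cells of a type from less RNA per cell.

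The matrix genes called between the breeds were all lower in JH pigs. Of the 65 genes, 37 passed the filter on low values, and 9 of these were called lower in JH, against 1.36% of all tested genes. These were COL1A1, COL1A2, COL3A1, COL4A1, COL6A3, LAMA3, NID2, FN1 and SPARC. None was called higher by limma, against 1.02%, none had an unadjusted p below 0.05 in that direction, and voom on recovered reads also called 0 higher. The log2 fold change was below 0 for 36 of the 37, against 47.1% of all tested genes, and LAMB3 was the exception. Every JH value lay below every LD value for 25 of the 37, against 12.5% of all tested genes, and the unadjusted p was below 0.05 in this direction for 24 of the 37, against 9.51%. Below -1 were 19 log2 fold changes, against 7.7%. The median log2 fold change was -1.01 over the 37 genes and 0.04 over all tested genes. COL5A3, LAMA3 and LUM passed the filter through their LD values alone and had to be lower in JH, so that none of these counts describes all 65 genes. With no filter, 58 matrix genes had a value above 0, 54 of them had a log2 fold change below 0 (50.7% of 19614 genes did), and 6 were called lower, against 0.632% of those 19614 genes.

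The number called depended on single libraries. It was 1 without LD1, 2 without LD2, 5 without LD3, 4 without JH1, 6 without JH2 and 7 without JH3. In the same order, the number of all genes called, 310 with every library, was 79, 114, 149, 164, 150 and 406. The log2 fold change stayed below 0 for 34 to 36 of the 37 matrix genes when 1 library was left out.

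**Figure D1:**
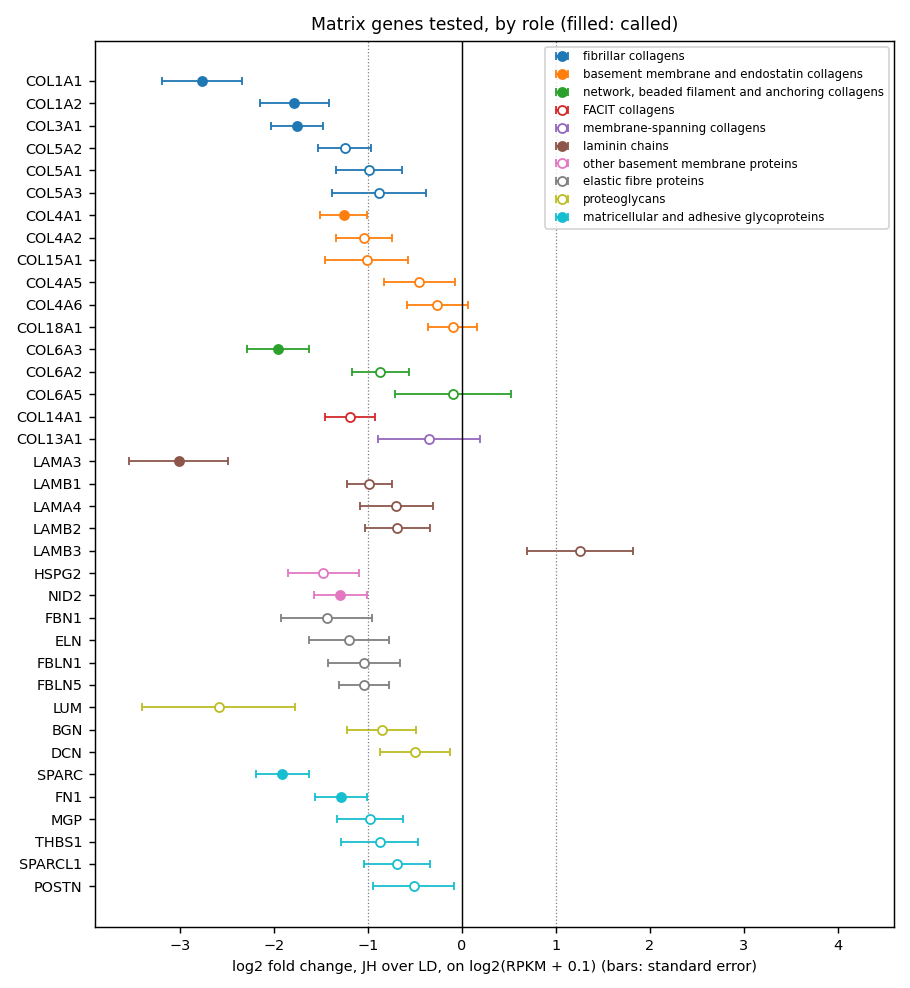
The log2 fold change (JH over LD, on log2(RPKM + 0.1)) of each of the 37 tested matrix genes, coloured by role, with bars for the standard error from limma; filled points mark the 9 genes called and dotted lines the fold change limit. Of the 37 points 36 lie left of 0, COL1A1 and LAMA3 farthest, and LAMB3 alone lies right of it at 1.26.

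Of the 6 tested fibrillar collagens 3 were called lower, against 1.36% of all tested genes. All 6 had every JH value below every LD value, against 12.5% of all tested genes. For COL5A3 this order was fixed beforehand, since it passed the filter through its LD values alone. COL1A1 and COL1A2 code for the chains of type I collagen, the main fibre protein of connective tissue. COL1A1 had RPKM values of 4.70, 7.93 and 6.81 in JH and 31.7, 89.7 and 29.4 in LD. Every LD pig stood above every JH pig, and LD2 was far above the other LD pigs. The mean was 6.48 ± 1.64 in JH and 50.3 ± 34.2 in LD (SD, n = 3 each), a ratio of 7.75, and COL1A1 fell in JH (log2 fold change -2.77 ± 0.43, limma adjusted p = 0.0144), a call kept without any 1 of the 6 libraries (adjusted p 0.0210 to 0.0481). These values stood for 40 to 1048 reads over a gene model of 1480 bases, as read from the values.

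COL1A2 was at 8.52, 17.9 and 10.3 in JH and 41.6, 59.0 and 26.8 in LD. The order of the pigs was the same within LD, the groups did not overlap, and JH2 was the highest JH pig. COL1A2 fell in JH (log2 fold change -1.78 ± 0.37, limma adjusted p = 0.0442), but the call was lost without JH1, JH3, LD1 or LD2 (adjusted p 0.0688 to 0.147), with no filter (0.0652) and with a pseudocount of 0.01 (0.0553). The ratio of COL1A1 to COL1A2 within a library was 0.552, 0.442 and 0.658 in JH and 0.762, 1.52 and 1.10 in LD. It was lower in each JH library than in any LD library. This difference had a two-sided exact permutation p of 0.1, the smallest that 3 against 3 pigs allow, and 0.233 after adjustment over 7 ratios of chains compared.

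COL3A1, the chain of type III collagen found in the fine reticular fibres of the liver, had the highest level of the fibrillar collagens, at 30.6, 46.8 and 38.0 in JH and 128, 165 and 99.6 in LD. All LD libraries lay well above the highest JH library. It fell in JH (log2 fold change -1.75 ± 0.28, limma adjusted p = 0.0159) and rested on 837 to 6194 reads, and the call was lost without LD1 or LD2 (adjusted p 0.0811 and 0.0674). COL3A1 relative to COL1A2 was between 2.61 and 3.72 in all libraries and overlapped between the breeds (exact permutation p = 1).

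The type V collagens, minor chains that help start fibres, were not called. COL5A2 was at 1.81, 2.22 and 2.74 in JH and 5.04, 6.97 and 4.55 in LD, with no overlap, and stood just outside the limit (log2 fold change -1.25 ± 0.28, limma adjusted p = 0.0577). COL5A1 also did not overlap and gave -0.99 ± 0.35, limma adjusted p = 0.187. COL5A3 was at 0.458, 0.436 and 0.194 in JH and 0.794, 0.857 and 0.546 in LD with 8 to 36 reads, and gave -0.88 ± 0.50, limma adjusted p = 0.397. The summed RPKM of the 10 fibrillar genes listed was 48.1, 77.0 and 59.9 in JH and 209.8, 327 and 164 in LD, a mean of 61.7 ± 14.6 and 234 ± 84.4 (SD, n = 3 each).

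**Figure D2:**
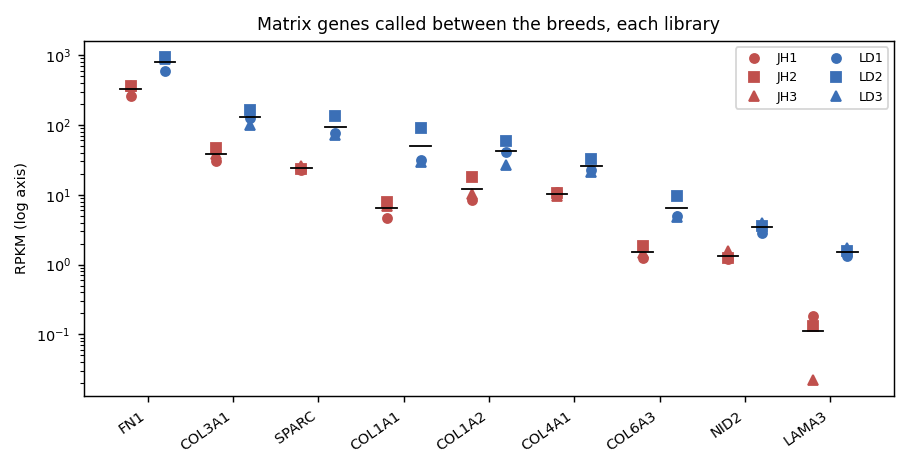
RPKM (log axis) of the 9 matrix genes called, ordered by level, with 1 point per library and a bar at the mean of each breed. The JH and LD points do not overlap for any of the 9 genes, and LD2 is the highest library for 7 of them.

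Among the 6 tested collagens of basement membranes and of the endostatin type, COL4A1 alone was called lower, against 1.36% of all tested genes. It codes for the most widespread chain of the type IV network and was at 11.0, 10.7 and 9.48 in JH and 22.7, 32.2 and 21.3 in LD. The JH pigs were within a narrow range and all LD pigs were above them. COL4A1 fell in JH (log2 fold change -1.26 ± 0.25, limma adjusted p = 0.0384), with 403 to 1618 reads, but the call was lost whichever library was left out (adjusted p 0.0566 to 0.133). Its partner chain COL4A2 was at 12.0, 10.9 and 7.96 in JH and 20.1, 29.0 and 15.7 in LD. The groups did not overlap and the log2 fold change was -1.04 ± 0.30, limma adjusted p = 0.114. The ratio of the 2 chains lay between 0.921 and 1.36 over all libraries and overlapped between the breeds (exact permutation p = 0.3, adjusted 0.525).

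COL18A1, whose product is cut to give endostatin and which hepatocytes themselves express, had the highest mean RPKM of the collagen genes in JH, while COL3A1 was higher in LD. This ranking depends on the gene models, of 1643 bases for COL18A1 and 4767 for COL3A1, as read from the values. In reads summed over JH, COL18A1 with 3505 was below COL3A1 with 3967. The RPKM values of COL18A1 were 129.6, 91.9 and 87.4 in JH and 104, 129.5 and 95.4 in LD. The groups overlapped and JH1 was the highest library. Its log2 fold change was -0.10 ± 0.26, limma adjusted p = 0.875, and its sign turned without JH3 (0.01) or LD2 (0.03). COL15A1, the related chain of vessel and muscle basement membranes, did not overlap between the breeds and gave -1.01 ± 0.44, limma adjusted p = 0.268. COL4A5 and COL4A6, chains of a more restricted type IV network, overlapped (log2 fold change -0.46 ± 0.38, limma adjusted p = 0.573 and -0.26 ± 0.32, limma adjusted p = 0.718, respectively).

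Type VI collagen forms beaded filaments near cells. Its large chain COL6A3 was at 1.26, 1.83 and 1.47 in JH and 5.02, 9.50 and 4.76 in LD. The LD values lay above all JH values, LD2 again the highest. COL6A3 fell in JH (log2 fold change -1.95 ± 0.33, limma adjusted p = 0.0227), and the call was lost without JH1, LD1 or LD2 (adjusted p 0.0588 to 0.0789). COL6A2, another chain of the same protein, was at 7.13, 9.03 and 8.98 in JH and 13.2, 23.1 and 11.6 in LD, also without overlap, and gave -0.87 ± 0.30, limma adjusted p = 0.180. Within a library, COL6A3 relative to COL6A2 was 0.177, 0.202 and 0.164 in JH and 0.380, 0.411 and 0.409 in LD. The ratio was nearly constant inside each breed and the breeds were apart (exact permutation p = 0.1, the smallest possible, adjusted 0.233). COL6A5, a later-described chain of the family, was at 0.564, 1.30 and 1.80 in JH and 0.456, 1.30 and 2.64 in LD. Its libraries overlapped, and its log2 fold change of -0.09 ± 0.62, limma adjusted p = 0.956 had no stable sign, with 0.34 without JH1, 0.45 without LD3 and 0.11 after quantile normalization.

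COL14A1, a collagen that sits on the surface of fibres, was at 3.65, 3.71 and 4.39 in JH and 8.07, 12.1 and 7.52 in LD. The breeds did not overlap, and at -1.19 ± 0.27, limma adjusted p = 0.0553 the gene was just outside the limit. It was called with median scaling (adjusted p = 0.0421), a minimum RPKM of 1 (0.0497), quantile normalization (0.0383) and voom on recovered reads (0.0284). COL13A1, which spans the cell membrane, was low at 0.617, 0.203 and 0.356 in JH and 0.388, 0.549 and 0.547 in LD, with 4 to 11 reads. Its breeds overlapped (log2 fold change -0.35 ± 0.55, limma adjusted p = 0.780).

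**Figure D3:**
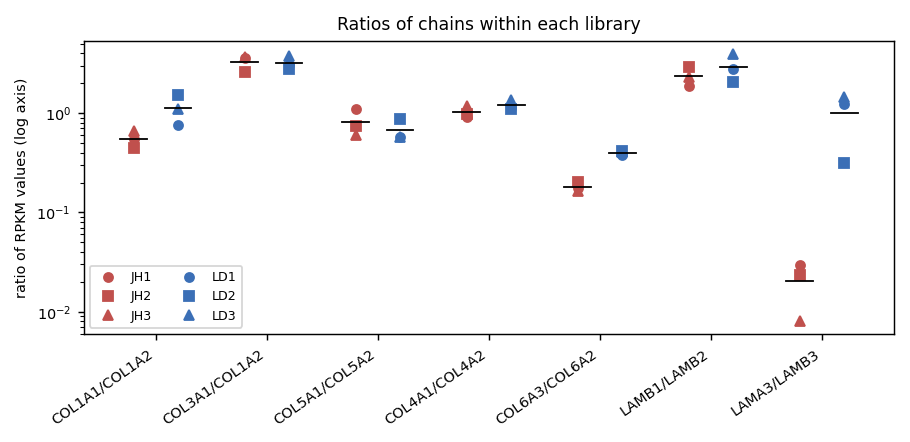
Ratios of RPKM between 7 pairs of matrix chains (log axis), 1 point per library with a bar at the mean of each breed. COL1A1/COL1A2, COL6A3/COL6A2 and LAMA3/LAMB3 are lower in every JH library than in every LD library, and the other 4 ratios overlap. LAMA3 passed the filter through its LD values alone.

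Laminins are crosses of an alpha, a beta and a gamma chain. LAMA3, an alpha chain of epithelial laminin, had the most negative log2 fold change of the tested matrix genes at the pseudocount of 0.1. It was at 0.181, 0.134 and 0.0224 in JH and 1.32, 1.56 and 1.71 in LD, which stood for 6, 6 and 1 reads in JH and 54, 71 and 78 reads in LD. The gene was nearly without reads in JH and low but present in all LD pigs. It passed the filter through these LD values alone, so its order between the breeds was fixed beforehand. LAMA3 was called (log2 fold change -3.01 ± 0.52, limma adjusted p = 0.0263), a fitted value that depends on the pseudocount (-3.99 with 0.01, adjusted p = 0.0622, and -1.18 with 1, adjusted p = 0.0105, where COL1A1 at -2.61 was the more negative). The call was lost without any 1 LD library (adjusted p 0.105 to 0.111) and with the replicate number as a block (adjusted p = 0.0556).

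LAMB3, the beta chain that pairs with LAMA3, was the matrix gene with the highest log2 fold change. Its values were 6.15, 5.71 and 2.75 in JH and 1.07, 4.98 and 1.18 in LD. LD1 and LD3 were low, while LD2 reached the JH range, so the groups overlapped. The log2 fold change was 1.26 ± 0.56, limma adjusted p = 0.284, with 21 to 123 reads, and ranged from 0.88 to 1.94 with single libraries left out. LAMA3 relative to LAMB3 was 0.0294, 0.0235 and 0.00815 in JH and 1.24, 0.313 and 1.44 in LD. The JH ratios were all lower (exact permutation p = 0.1, adjusted 0.233). As LAMA3 passed the filter through its LD values alone, this ratio is no separate result.

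LAMB1, the commonest beta chain, had the highest level of the laminin chains listed, at 6.36, 5.66 and 4.86 in JH and 9.44, 12.4 and 11.8 in LD. It did not overlap between the breeds and gave -0.98 ± 0.24, limma adjusted p = 0.0766. LAMA4, an alpha chain of vessels, did not overlap either and gave -0.70 ± 0.39, limma adjusted p = 0.389. LAMB2, the beta chain of mature vessel walls, overlapped and gave -0.69 ± 0.35, limma adjusted p = 0.344. LAMB1 relative to LAMB2 overlapped (1.85 to 3.93, exact permutation p = 0.5).

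NID2, a nidogen that links laminin to type IV collagen, was at 1.20, 1.23 and 1.54 in JH and 2.79, 3.53 and 3.89 in LD. All LD pigs were above all JH pigs. NID2 fell in JH (log2 fold change -1.29 ± 0.28, limma adjusted p = 0.0497), on 29 to 129 reads, and was the called gene nearest to the limit, lost without any 1 library (adjusted p 0.0529 to 0.170). With the whole set of libraries voom on recovered reads alone, of the 9 alternatives, kept it. HSPG2, the gene of the heparan sulfate proteoglycan perlecan, was at 1.36, 1.07 and 2.55 in JH and 3.43, 6.46 and 4.09 in LD. JH3 was the highest JH library and still below LD1. The log2 fold change was -1.48 ± 0.38, limma adjusted p = 0.0885, and the gene passed the limits without JH3 (adjusted p = 0.0390) and with voom on recovered reads. NID1 was listed at 0 in every library.

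The 4 elastic fibre genes had log2 fold changes between -1.44 and -1.04. None was called, against 1.36% of all tested genes called lower. Each had an unadjusted limma p below 0.05, against 9.51% of all tested genes in this direction. ELN, the elastin gene, was at 9.85, 7.13 and 4.96 in JH and 25.7, 19.9 and 8.47 in LD. LD3 lay within the JH range, so ELN overlapped (log2 fold change -1.20 ± 0.43, limma adjusted p = 0.185). FBN1, the main chain of microfibrils, was at 0.408, 0.202 and 0.674 in JH and 0.954, 1.17 and 1.66 in LD. It was low in all pigs and lowest in JH2, and the breeds did not overlap (log2 fold change -1.44 ± 0.48, limma adjusted p = 0.168). FBLN1, a glycoprotein of elastic fibres and plasma, was at 35.5, 57.8 and 32.3 in JH and 58.2, 147 and 68.0 in LD. LD2 alone was far above the rest, and LD1 only just above JH2 (log2 fold change -1.04 ± 0.38, limma adjusted p = 0.198). FBLN5, needed for elastic fibre assembly, was at 5.19, 5.35 and 4.98 in JH and 9.34, 15.0 and 8.93 in LD. The JH pigs differed little among themselves and all LD pigs lay above them (log2 fold change -1.04 ± 0.27, limma adjusted p = 0.0885).

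BGN, DCN and LUM code for small leucine-rich proteoglycans that bind collagen fibres. BGN was at 48.9, 52.7 and 22.7 in JH and 62.3, 98.2 and 56.6 in LD. JH3 was well below the other JH libraries, and JH2 came close to LD3 without reaching it (log2 fold change -0.85 ± 0.37, limma adjusted p = 0.267). DCN was at 6.60, 11.4 and 10.3 in JH and 19.2, 14.8 and 7.75 in LD. LD3 lay inside the JH range (log2 fold change -0.50 ± 0.37, limma adjusted p = 0.521). LUM was low, at 0, 0.333 and 0.267 in JH and 4.36, 0.719 and 0.848 in LD, or 0, 5 and 4 reads in JH and 60, 11 and 13 reads in LD. LD1 alone carried most of its reads. The fitted log2 fold change of LUM was -2.59 ± 0.81, limma adjusted p = 0.143, which depends on the pseudocount since JH1 was listed at 0.

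FN1, the fibronectin gene, had the highest level of all matrix genes, at 263, 358 and 359.7 in JH and 586, 942 and 881 in LD. Every LD pig was above every JH pig and JH1 was the lowest. FN1 fell in JH (log2 fold change -1.28 ± 0.28, limma adjusted p = 0.0489), a call kept without JH3 (adjusted p = 0.0470) and lost without each of the other 5 libraries (adjusted p 0.0890 to 0.173). It was also lost with no filter (0.0969), a pseudocount of 0.01 (0.0589) and median scaling (0.0545). SPARC, a collagen-binding protein secreted during matrix deposition, was at 22.7, 23.1 and 25.9 in JH and 77.7, 132 and 70.9 in LD. The JH pigs lay close together and the LD pigs were all far above them. SPARC fell in JH (log2 fold change -1.91 ± 0.28, limma adjusted p = 0.0125) on 69 to 552 reads, and its call was lost without LD1 (adjusted p = 0.0533).

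MGP, an inhibitor of calcification, was the second most abundant gene of this group at 144, 164 and 72.5 in JH and 319, 185 and 222 in LD. The breeds did not overlap, with JH3 lowest and LD1 highest (log2 fold change -0.98 ± 0.35, limma adjusted p = 0.193). POSTN, a matrix protein of growing and healing connective tissue, was at 22.4, 65.9 and 77.9 in JH and 72.6, 79.2 and 58.5 in LD. JH1 was low and JH2 and JH3 were within the LD range. Its log2 fold change was -0.51 ± 0.43, limma adjusted p = 0.578, and 0.04 without JH1. THBS1, an adhesive glycoprotein that can activate latent TGF-beta, overlapped and gave -0.87 ± 0.41, limma adjusted p = 0.308. SPARCL1, the relative of SPARC found in vessels, overlapped too and gave -0.69 ± 0.35, limma adjusted p = 0.338.

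**Figure D4:**
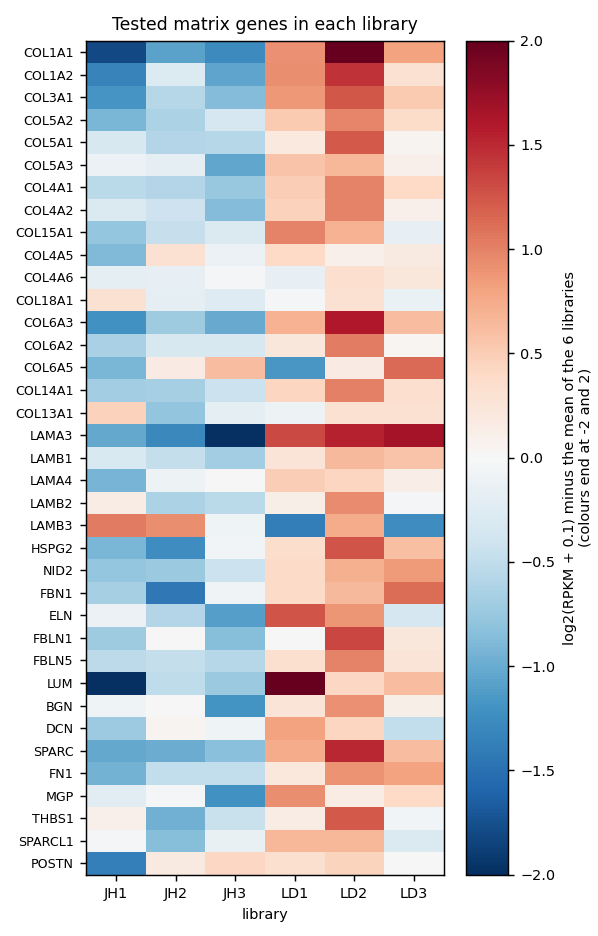
Level of each tested matrix gene in each library, as log2(RPKM + 0.1) minus the mean of the 6 libraries (colours end at -2 and 2), genes ordered by role. LD2 holds the highest value of 22 genes and JH1 the lowest of 17, and LAMB3 and COL6A5 are among the genes that break the pattern of pale or blue JH and red LD columns.

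The pattern was not spread evenly over the pigs. LD2 held the highest value for 22 of the 37 tested matrix genes, against 22.0% of all tested genes, and LD1 for 8, LD3 for 4 and JH1 for 3. JH1 held the lowest value for 17 of the 37 (13.7% of all tested genes), JH3 for 11 (25.2%), JH2 for 7 (13.2%) and LD1 for 2 (7.10%), while LD3, the lowest library for 30.2% of all tested genes, held it for 0. The summed RPKM of all 65 genes was 804, 978 and 821 in JH and 1663, 2261 and 1749.6 in LD. Without FN1 the sums were 541, 621 and 461 in JH and 1076, 1319 and 868 in LD, so the breeds were apart with and without this one abundant gene. RN18S, the ribosomal RNA gene, ranged from 1570.3 in JH2 to 62257 in JH3, and its part in these values was not tested.

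Of the 28 matrix genes that did not pass the filter, 7 were listed at 0 in every library, namely COL24A1, COL25A1, COL4A3, COL9A1, LAMA1, LAMC3 and NID1. Among the other 21, every JH value lay below every LD value for COL8A1, COL21A1, COL27A1 and VCAN, against 6.74% of all 6621 untested genes above 0. VCAN, a large proteoglycan, had 7, 16 and 7 reads in JH and 43, 18 and 26 reads in LD. COL8A1, a short-chain collagen of vessels, had 0, 3 and 13 reads in JH and 21, 24 and 18 in LD. COL21A1, the second most abundant fibre-associated collagen here, had 4, 8 and 10 reads in JH and 11, 25 and 16 in LD. COL27A1 had 0, 4 and 7 reads in JH and 10, 8 and 9 in LD. These groups were ordered alike but rest on few reads, and none was tested.

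LAMA2 had 7, 5 and 15 reads in JH and 5, 28 and 34 in LD. COL7A1, the anchoring fibril collagen, had 7, 11 and 5 reads in JH and 8, 35 and 16 in LD. COL4A4 had 2, 2 and 12 reads in JH and 16, 10 and 13 in LD. All of these overlapped. COL17A1, an epithelial membrane collagen, had 1, 3 and 4 reads in JH and 1, 3 and 1 in LD. COL10A1, COL16A1, COL19A1, COL22A1, COL23A1, COL6A6, COL8A2, COL9A2 and LAMB4 had at most 5 reads in any library. COL2A1, COL11A2 and COL28A1 were above 0 in at most 2 libraries and their reads could not be recovered.

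Some matrix genes lie side by side in the genome. In the RefSeq gene order of assembly Sscrofa11.1, 7 pairs of the 65 genes were neighbours and both genes were tested in 4. The log2 fold changes were -1.75 for COL3A1 beside -1.25 for COL5A2, and -1.26 for COL4A1 beside -1.04 for COL4A2. They were -0.46 for COL4A5 beside -0.26 for COL4A6, and -0.50 for DCN beside -2.59 for LUM. Neighbours had the same sign in these 4 pairs, as had 36 of the 37 tested genes in any case.

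Genes that make, process and receive the matrix were read beside these. Of all tested genes 47.1% had a log2 fold change below 0 and 1.36% were called lower. Of 19 tested genes for collagen synthesis, folding and crosslinking, 15 had a log2 fold change below 0 and 1 was called lower, with a median of -0.62. The called gene was PCOLCE, an enhancer of procollagen cleavage, at 10.4, 19.7 and 9.24 in JH and 36.3, 50.4 and 32.0 in LD (log2 fold change -1.64 ± 0.33, limma adjusted p = 0.0414). It was lost without JH1, JH3 or any LD library (adjusted p 0.0634 to 0.145), with no filter (0.0592) and with a pseudocount of 0.01 (0.0528). LOX, a crosslinking oxidase, gave -1.91 ± 0.58, limma adjusted p = 0.132, and FKBP10, a collagen chaperone, gave -1.80 ± 0.54, limma adjusted p = 0.130.

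Of 18 tested matrix receptors, 13 had a log2 fold change below 0 and 1 was called lower, with a median of -0.32. The shares over all tested genes were 47.1% and 1.36%. ITGB3, the integrin beta chain of platelets and vessels that binds fibronectin, was at 1.72, 0.989 and 1.50 in JH and 7.63, 5.75 and 9.06 in LD. It was far lower in every JH pig than in any LD pig (log2 fold change -2.34 ± 0.30, limma adjusted p = 0.00722), and the call was kept without any 1 library. Of 19 further matrix genes outside the rule, 18 had a log2 fold change below 0 and 1 was called, with a median of -0.83. This was FMOD, a small proteoglycan close to LUM, at 2.16, 2.22 and 2.35 in JH and 6.96, 7.71 and 6.16 in LD (log2 fold change -1.58 ± 0.24, limma adjusted p = 0.0131). It was lost without LD1 or LD2 (adjusted p 0.0789 and 0.0604).

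Markers of the cells that make matrix were read in the same way, beside the 47.1% of all tested genes below 0 and the 1.36% called lower. All 8 tested stellate cell and fibroblast markers had a log2 fold change below 0, with a median of -0.81, and their summed RPKM was 69.3 to 109 in JH and 112 to 151 in LD. One was called, LRAT, the retinol esterifying enzyme of stellate cells, at 0.424, 0.512 and 0.564 in JH and 1.99, 1.80 and 1.81 in LD (log2 fold change -1.72 ± 0.34, limma adjusted p = 0.0384), a call lost without every single library but JH3 (adjusted p 0.0795 to 0.147), with no filter (0.0632), a minimum RPKM of 1 (0.0507), the replicate block (0.0640) and a pseudocount of 1 (log2 fold change -0.94). PDGFRB, the platelet-derived growth factor receptor of these cells, did not overlap and gave -1.49 ± 0.36, limma adjusted p = 0.0719. Their part in the lower matrix genes was not tested.

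Of 5 tested smooth muscle markers all 5 were below 0, against 47.1% of all tested genes, and none was called. All 5 overlapped between the breeds, and LD3 lay within or below the JH range for each. Lowest in adjusted p were ACTA2 (log2 fold change -1.33 ± 0.45, limma adjusted p = 0.171) and TAGLN (-1.22 ± 0.47, limma adjusted p = 0.215). The median of the smooth muscle markers was -0.92. Their sums overlapped, at 44.8 to 65.4 in JH and 55.4 to 187 in LD, with MYH11 listed at 0. Of 9 endothelial markers 8 were below 0, none was called, the median was -0.48 and the sums overlapped (184 to 296 in JH, 234 to 290.5 in LD). Every JH value lay below every LD value for 4 of the 9, against 12.5% of all tested genes. Among these were KDR (log2 fold change -0.91 ± 0.23, limma adjusted p = 0.0811) and PECAM1 (-0.81 ± 0.22, limma adjusted p = 0.0988), the lowest in adjusted p. All 4 tested bile duct markers were below 0, with a median of -1.42 and sums of 7.47 to 16.6 in JH and 17.1 to 37.6 in LD. EPCAM, an epithelial adhesion molecule of bile ducts, was at 1.27, 1.31 and 1.32 in JH and 3.69, 5.17 and 3.31 in LD and was called (log2 fold change -1.55 ± 0.28, limma adjusted p = 0.0301), a call lost without any 1 library except JH3 (adjusted p 0.0566 to 0.111) and with no filter (0.0592). Macrophage and leukocyte markers had 1 of 5 below 0, none called, a median of 0.41 and sums of 22.4 to 67.4 in JH and 29.1 to 32.5 in LD. CD163 was listed at 0. CSF1R (log2 fold change 1.23 ± 0.51, limma adjusted p = 0.251) and MARCO (0.60 ± 0.38, limma adjusted p = 0.455) were lowest in adjusted p, and both overlapped. The only gene of the mesothelial list tested, KRT18, gave 0.15. Its mean RPKM over all libraries was 113, beside 0.180 for MSLN and 0.0677 for WT1. Its value can thus not be read as that of mesothelial cells. LRRN4, under the filter with 1 to 23 reads, was at 0.548, 1.33 and 0.349 in JH and 0.0634, 0.171 and 0.114 in LD, without overlap. MSLN, UPK3B and WT1, also under the filter, overlapped, and CALB2 was listed at 0. Hepatocyte markers had 6 of 7 below 0, none called and a median of -0.40, with APOB listed at 0. TF (log2 fold change -1.13 ± 0.36, limma adjusted p = 0.153) and SERPINA1 (-0.80 ± 0.27, limma adjusted p = 0.169) were lowest in adjusted p here. The part of these cell types in the matrix result was not tested.

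miRNAs in the same pigs were compared in the same direction, JH over LD on log2(RPM + 0.5), over 241 miRNAs, of which 9.54% were called by the same limits. The miR-29 family is the miRNA family best known for binding collagen, elastin and laminin messages. miR-29b had RPM values of 46.2, 36.4 and 24.8 in JH and 12.8, 9.83 and 13.9 in LD. Every JH pig was above every LD pig, with JH3 the lowest of JH. The mean was 35.8 ± 10.7 in JH and 12.2 ± 2.12 in LD (SD, n = 3 each), and miR-29b rose in JH (log2 fold change 1.49 ± 0.27, limma adjusted p = 0.00782), one of 2 miRNAs called higher (0.83% of those tested). It rested on 125 to 584 reads and was called without any 1 library (adjusted p 0.00878 to 0.0350).

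miR-29a, by far the most abundant member, was at 1170.3, 736 and 953 in JH and 833, 851 and 919.6 in LD. JH1 was the highest library and JH2 the lowest, so the breeds overlapped (log2 fold change 0.11 ± 0.23, limma adjusted p = 0.760). miR-29c was at 7.36, 4.67 and 4.78 in JH and 4.50, 4.80 and 10.6 in LD. LD3 alone was higher than the rest (log2 fold change -0.15 ± 0.35, limma adjusted p = 0.786). The sign of miR-29c turned with median scaling (0.25), quantile normalization (0.27) or without LD3 (0.22), and that of miR-29a without JH1 (-0.05). In sum over the family the RPM overlapped, at 777 to 1224 in JH and 851 to 944 in LD. No link between these miRNAs and the matrix genes was tested.

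Over all 241 miRNAs the median log2 fold change was -0.30, and 76.8% were below 0. It was 0.09 after median scaling and 0.06 after quantile normalization, so a small change such as that of miR-29c takes its sign from the scaling. Of 9 tested miRNAs typical of mesenchymal cells, which make matrix, all 9 were below 0 under all 3 scalings and 4 were called lower, against 8.71% of the 241, and 8 did not overlap, against 29.9%. The 9 hold both arms of miR-143, miR-145, miR-199a and miR-199b beside miR-214, so they are not 9 independent results. No call was left after median scaling, after quantile normalization or without LD3, and 3 were left without LD1 and with the replicate block. Their median was -0.93, which is -0.63 relative to the median of all miRNAs, and their summed RPM was 25385 to 37426 in JH and 49353 to 61677 in LD. miR-145-5p, of smooth muscle and stellate cells, was at 786, 854 and 1077 in JH and 2353, 1661 and 2011 in LD (log2 fold change -1.15 ± 0.23, limma adjusted p = 0.0118). Its breeds did not overlap. miR-199a-3p was at 3012, 3209.8 and 4772 in JH and 6752, 8769.9 and 8013 in LD (log2 fold change -1.12 ± 0.24, limma adjusted p = 0.0134). It and miR-199b-3p, which gave -1.18 ± 0.24, limma adjusted p = 0.0122, are nearly identical sequences whose reads may not be separable, so they are uncertain as 2 results. miR-199b-5p gave -1.09 ± 0.25, limma adjusted p = 0.0170. The 4 tested hepatocyte miRNAs had no call and a median of -0.10, and miR-122, the main hepatocyte miRNA, gave 0.01 ± 0.24, limma adjusted p = 0.979.

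**Figure D5:**
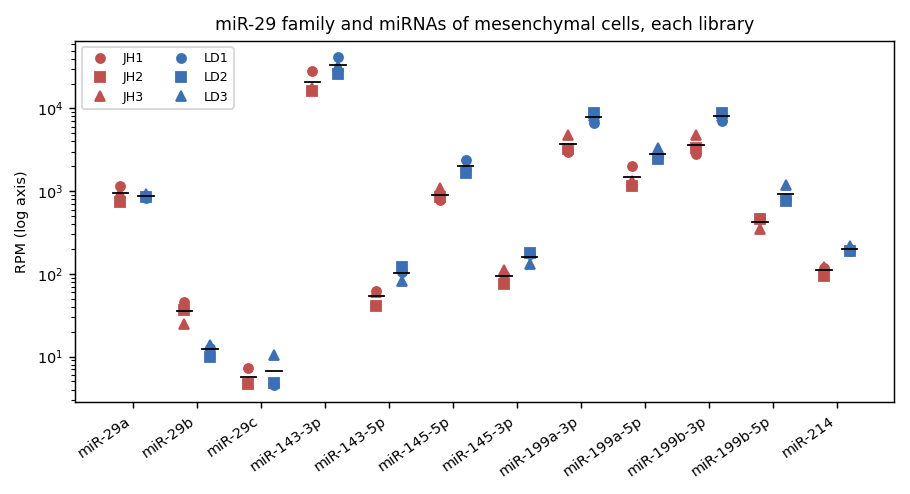
RPM (log axis) of the miR-29 family and of 9 miRNAs of mesenchymal cells, 1 point per library with a bar at the mean of each breed. miR-29b is higher in every JH library than in every LD library, miR-29a and miR-29c overlap, and 8 of the 9 mesenchymal miRNAs are lower in every JH library.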

How the data were processed

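Samples were assigned to JH or LD by their labels, which give 1 mRNA and 1 small RNA library per pig and no pooling. For mRNA, the authors aligned single reads to the pig genome with TopHat2 2.0.13 (per the labels), used gfold for the reads of each gene and deposited RPKM. For miRNA, the authors deposited RPM, the reads of each mature miRNA relative to all clean reads of that library.

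limma 3.58.1 (R 4.3.3; lmFit, eBayes with a trend, Benjamini-Hochberg over all features tested) was run on log2(RPKM + 0.1) for genes reaching an RPKM of 0.5 in 3 or more libraries. For miRNAs it was run on log2(RPM + 0.5), with an RPM of 1 reached in 3 or more libraries. Exact permutation tests were two-sided. Reads were recovered from the values as whole numbers, for 17812 of 19614 genes above 0 and for all miRNA values (10672375 to 13932322 clean reads per library, lowest value above 0 equal to 10 reads). Reads are not independent molecules and describe counting error only. The scripts were tested on simulated data, and tables and plots were made in Python 3.11.15 (pandas 2.3.3, matplotlib 3.10.9).

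The matrix genes and the other lists were chosen with earlier results of these data known. Values of all libraries are given for the genes called and, per role, for the 2 of highest mean and those of highest and lowest log2 fold change, with others added beside them. Of the other gene lists the called genes are named, some with others beside them. Where none was called, the tested genes of lowest adjusted p are named. The alternatives were other pseudocounts and filters, median scaling, quantile normalization, robust eBayes, the replicate block, each library left out, and voom on recovered reads, which was chosen after seeing the data. One gene under the filter is not reported here by name.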

Additional observations from a re-analysis of the deposited data

How the results depend on the processing

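The 310 genes called went to 200 with no filter and 199 with a pseudocount of 0.01, and to 79 to 406 with 1 library left out. The 9 matrix genes called went to 5 with a pseudocount of 0.01 and to 1 to 7 with 1 library left out. Counts of matrix genes called were 6 with no filter, 10 with median scaling, 12 with quantile normalization and 11 with voom on recovered reads, an alternative chosen after seeing the data that leaves out FN1. The counts of all genes called rose as well under the last 3, to 384, 398 and 408, with 1.61%, 1.71% and 1.85% of the genes tested called lower. The median of -1.01 was -0.87 with no filter, -0.88 with a pseudocount of 1 and -1.11 with quantile normalization, and -1.19 to -0.81 with 1 library left out. The log2 fold change changed sign for COL18A1 without JH3 or LD2 (range with 1 library left out -0.277 to 0.027), for COL6A5 with quantile normalization (0.11) and without JH1 or LD3 (-0.697 to 0.453), for POSTN without JH1 (-0.853 to 0.0434), for miR-29a without JH1 (-0.0509 to 0.284) and for miR-29c with median scaling (0.25), quantile normalization (0.27) and without LD3 (-0.354 to 0.219). In all, 486 values of single matrix genes kept direction and call, 45 lost and 12 gained the call, and 6 changed sign. COL14A1, COL4A2 and FBLN5 gained it with median scaling and quantile normalization, and LAMB1 with quantile normalization. COL14A1 also gained it with a minimum RPKM of 1, COL14A1, COL5A2 and HSPG2 with voom, and HSPG2 without JH3. The cause was not tested.

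The replicate numbers shared by the breeds were not used as a pairing in the main fit. Deviations of same-numbered libraries from the breed means had correlations of -0.02 to 0.18 for mRNA and -0.32 to -0.07 for miRNA. Of the libraries, 2 of 6 for mRNA and 0 of 6 for miRNA correlated best with their own number. RN18S was lowest in JH2 and LD2 (RPKM 1570.3 and 2108.1) and highest in JH3 and LD3 (62257 and 20159.8). With 3 libraries per breed these values cannot decide whether same-numbered libraries shared a batch. With the replicate block 253 genes and 7 matrix genes were called, LAMA3 and NID2 being lost (adjusted p 0.0556 and 0.0591), the median of the matrix genes was -1.01, and miR-29b gave 1.49 (adjusted p = 0.0352), miR-29a 0.11 and miR-29c -0.15. Of the 4 mesenchymal miRNAs called, the block left 3.

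With 3 pigs per breed an exact test of a single value cannot go below p = 0.1, and matrix genes under the filter rest on at most 43 reads per library.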
